A study of Mus musculus with 12 samples.

Results

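In 428 stretches of the mouse genome, each a tile of 1 kb, CpG methylation was lower in all 3 libraries of leukemic Tet2-/- Nras G12D animals than in every one of the 9 other libraries. The tiles were chosen for this pattern. Reads of both strands were added at each CpG, autosomal CpGs with at least 10 reads in all 12 libraries were kept, and tiles with at least 3 such CpGs were scored as methylated reads over all reads. A tile was taken where the highest of the 3 leukemic levels lay at least 15 percentage points below the lowest of the 9 others, a distance called the gap below. These tiles were 0.527% of the 81162 tiles tested. They were 0.790% of the 54211 tiles whose lowest level in the 9 others was 15% or more, the only tiles that could meet the rule. The leukemic levels and their distance from the others are therefore given as a description, with no test.

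The cells were LSK cells from bone marrow of C57BL/6 mice aged 6 months, a sorted fraction without lineage markers that carries Sca1 and cKit and holds blood stem cells and early progenitors. There were 3 libraries in each of 4 groups: leukemic Tet2-/- Nras G12D, nonleukemic Tet2-/- Nras G12D, Tet2-/- and Nras G12D. The alleles were conditional and specific to the hematopoietic tissue in every group, per the series design, which does not name the driver. The descriptions of the 3 leukemic libraries, and of no other library, carry the mark BMT, which the labels do not explain; whatever it stands for cannot be told apart from leukemia in any comparison given here. Leukemia was read from a prefix in the sample titles and from the design, and nothing says whether animals were pooled or whether the 3 libraries of a group came from separate animals, so p-values measure the spread between libraries. No wild-type library was analysed here, and identity of the sorted cells could not be checked, since no expression was measured.

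DNA methylation at CpGs is set and kept by DNA methyltransferases and covers most CpGs outside CpG islands. Tet2 oxidises methylcytosine, a step in its removal, and is among the genes most often mutated in myeloid neoplasms. Nras G12D is an activated form of a small GTPase that drives MAPK signalling. The assay, reduced representation bisulfite sequencing, reads CpGs near MspI cut sites, so it samples CpG-rich DNA densely and the rest of the genome thinly. A level between the extremes in sorted cells can come from a share of cells without methylation or from partly methylated DNA in all cells, and these cannot be told apart here.

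The 2 tiles that lie on a transcription start are shown by their sequence, because these tiles overlap a promoter. Each is the stretch of 250 bases before the start on the gene's strand, from RefSeq (GRCm38.p6), placed on the mm9 positions of the deposited tables by the spacing of its CpGs. Capitals mark the CpGs that were tested.
Slc41a3, chr6:90568990-90569239, + strand: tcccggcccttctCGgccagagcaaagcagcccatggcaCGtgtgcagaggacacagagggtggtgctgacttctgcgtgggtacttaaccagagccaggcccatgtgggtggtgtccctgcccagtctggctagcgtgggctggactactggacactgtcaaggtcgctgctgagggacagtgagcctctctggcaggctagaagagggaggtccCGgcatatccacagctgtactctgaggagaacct
1300017J02Rik, chr9:103190628-103190877, - strand: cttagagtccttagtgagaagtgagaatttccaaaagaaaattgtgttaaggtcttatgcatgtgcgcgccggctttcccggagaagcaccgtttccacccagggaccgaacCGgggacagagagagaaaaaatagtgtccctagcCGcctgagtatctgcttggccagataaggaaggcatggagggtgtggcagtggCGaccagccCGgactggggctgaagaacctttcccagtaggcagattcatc
The Slc41a3 stretch holds 7 CpGs, of which 3 were tested, and the 1300017J02Rik stretch holds 10, of which 4 were tested.

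In the Slc41a3 tile, chr6:90569000-90569999 with 11 tested CpGs, the leukemic libraries were at 67.7%, 30.5% and 63.6%. The nonleukemic double mutants were at 89.6%, 85.7% and 86.7%, the Tet2-/- libraries at 87.0%, 93.8% and 89.7%, and the Nras G12D libraries at 90.7%, 86.3% and 86.7%. Slc41a3 belongs to a family of magnesium transporters. Its printed CpGs were not lowered evenly. At the CpG 34 bases before the start, the leukemic libraries were at 84.4%, 30.8% and 48.9%, against 89.8% to 100% in the others. At the CpG 237 bases before it, leukemic replicate 3 was at 100% while replicates 1 and 2 were at 69.9% and 29.1%, and the others were between 84.9% and 100%. At the CpG 211 bases before the start, leukemic replicates 1, 2 and 3 were at 47.5%, 28.8% and 100%, and the others were between 58.2% and 100%. None of the 11 CpGs of this tile had a gap of 15 points by itself, so the tile met the rule through its sum.

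In the 1300017J02Rik tile, chr9:103190000-103190999 with 4 tested CpGs, all of them printed above, the leukemic libraries were at 58.9%, 11.2% and 25.9%. The nonleukemic double mutants were at 83.8%, 82.3% and 90.9%, the Tet2-/- libraries at 87.0%, 88.9% and 95.9%, and the Nras G12D libraries at 77.2%, 78.1% and 89.1%. The leukemic libraries divided along the sequence. At the CpGs 42 and 51 bases before the start all 3 were low, at 25%, 12.5% and 48.5% and at 39.3%, 22.9% and 34.1%. At the CpGs 104 and 138 bases before it, replicate 1 was at 87.1% and 80.6%, while replicates 2 and 3 were between 0.980% and 6.93%.

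Over the 428 tiles, the median level was 48.1%, 34.7% and 41.3% in the leukemic libraries. It was 87.9%, 88.8% and 89.1% in the nonleukemic double mutants, 90.6%, 92.6% and 89.4% in Tet2-/-, and 84.6%, 84.8% and 87.4% in Nras G12D. Over the 54211 tiles that could meet the rule, the medians were 89.8%, 85.6% and 88.9% in the leukemic libraries and 92.9% to 95.2% in the 9 others. The leukemic mean minus the mean of the 9 others had a median of -42.4 points in the chosen tiles, against -4.67 points in the tiles that could meet the rule and -1.98 points in all tiles.

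**Figure D1:**
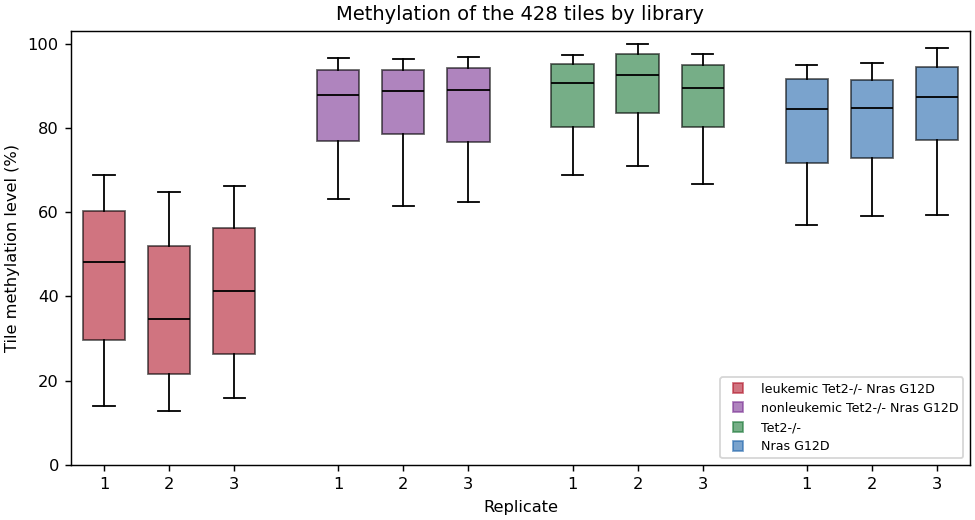
Methylation level (%) of the 428 tiles in each of the 12 libraries, with replicates on the x axis and groups in colour. Boxes span the quartiles with the median as a line, and whiskers run to the 10th and 90th percentiles; the leukemic medians are 48.1%, 34.7% and 41.3% and the other 9 lie between 84.6% and 92.6%.

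The libraries held 96278793 to 199670745 reads over listed cytosines, with leukemic replicate 1 the deepest and Tet2-/- replicate 2 the shallowest. The median over libraries of reads in a chosen tile ran from 292 to 547, against 390 to 673 in all tiles, and the thinnest tile had 33 reads in a library. Chromosome Y positions were listed at 349 in nonleukemic replicate 1 and at 360 and 251 in Tet2-/- replicates 1 and 2, and at 2 to 18 in each other library. Without these 3 libraries the rule gave 483 tiles, and leaving libraries out can only keep or add tiles.

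The same rule was run for every group and in both directions. It gave 7 tiles (0.00862%) with the leukemic libraries above the 9 others. It gave 0 tiles (0.0%) below and 1 tile (0.00123%) above for the nonleukemic double mutants, and likewise 0 below and 1 above for Tet2-/-. For Nras G12D it gave 0 tiles in either direction. All 3 leukemic libraries lay below all 9 others, by any distance, in 6954 tiles, 8.57% of those tested.

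Each leukemic library was also read in tiles that the 2 other leukemic libraries chose by the same gap. The 9 others took part in this choice and also served as the comparison, and each set of tiles includes the 428. The shares are therefore a description. Replicate 1 lay below all 9 others in 834 of 1110 such tiles (75.1%), against 34.4% of the tiles that could meet the rule. Replicate 2 did so in 666 of 754 tiles (88.3%, against 50.8%), and replicate 3 in 663 of 829 tiles (80%, against 37.9%). The median distance of the left-out library from the mean of the 9 others was -17.6, -28.2 and -24.6 points, in the order of the replicates. Replicate 1 was the nearest to the other groups both here and over all tiles that could meet the rule, where these medians were -2.53, -6.44 and -3.03 points.

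Few of the chosen tiles were close to unmethylated in leukemia. All 3 leukemic libraries were under 10% in 4 tiles, under 20% in 26 and under 50% in 180, and all 3 were at 50% or more in 74. The leukemic mean was at most 50% of the mean of the 9 others in 241 tiles (56.3%). The gap had a median of 21.4 points and ran from 15.01 to 68.2 points. It was under 20 points in 189 tiles, at least 25 points in 160 and at least 50 points in 11.

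Among tiles with at least 5 CpGs, the widest gap, 63.5 points, was at chr8:125922000-125922999 (5 CpGs), within Tcf25. The leukemic libraries were at 23.8%, 21.2% and 22.0%, the nonleukemic double mutants at 94.7%, 93.2% and 97.6%, the Tet2-/- libraries at 87.3%, 96.2% and 91.7%, and the Nras G12D libraries at 89.9%, 87.9% and 100%. The leukemic libraries were close to each other here and far from all others. The second, with a gap of 54.2 points and 16 CpGs, was at chr6:143781000-143781999, where 14 of its CpGs were lower in every leukemic library than in every other. There the leukemic libraries were at 30.9%, 33.0% and 20.96%, the nonleukemic double mutants at 96.5%, 92.3% and 94.0%, the Tet2-/- libraries at 96.1%, 92.5% and 95.8%, and the Nras G12D libraries at 87.2%, 92.2% and 92.1%. The nearest placed gene start, of Etnk1, lay 665 kb away.

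The third was close to unmethylated in leukemia. At chr6:113640000-113640999, 6.05 kb upstream of Tatdn2, the leukemic libraries were at 8.21%, 6.06% and 0.659%. The nonleukemic double mutants were at 59.5%, 67.2% and 65.3%, the Tet2-/- libraries at 85.0%, 69.3% and 86.6%, and the Nras G12D libraries at 68.8%, 68.9% and 71.7%. A like depth was reached at chr16:30186000-30186999, at 10.2%, 3.49% and 0% in the leukemic libraries, 72.9% to 85.8% in the nonleukemic double mutants, 80.2% to 81.6% in Tet2-/- and 49.2% to 58.4% in Nras G12D. In both tiles the other groups were themselves only partly methylated, and differed from each other more than at the chromosome 8 tile.

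In other tiles the leukemic libraries differed more from each other. At chr4:133384000-133384999, replicates 1 and 2 were at 33.3% and 28.3% and replicate 3 at 0.746%, against 84.6% to 98.4% in the 9 others. Within Trio, the tile chr15:27800000-27800999 was at 46.5%, 33.8% and 25% in the leukemic libraries and at 91.7% to 100% in the others. Within Kctd10, an adaptor of a cullin ubiquitin ligase, chr5:114822000-114822999 had closer leukemic levels, at 31.6%, 39.0% and 31.7%, against 81.9% to 94.9% in the others. The widest range was at chr4:59744000-59744999, with 69.0%, 12.7% and 16.7% in the leukemic libraries and 91.7% to 100% in the others. It was followed by chr11:4135000-4135999 at 66.0%, 10.3% and 32.6%, against 89.0% to 100% in the others. At chr2:71299000-71299999, within Metap1d, the leukemic levels were 65.8%, 11.9% and 47.8%, against 83.2% to 94.1% in the others. In all 3 of these tiles replicate 1 was the highest leukemic library.

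A tile on chromosome 18, chr18:84498000-84498999, was at 51.6%, 38.5% and 48.97% in the leukemic libraries and at 92.0% to 98.6% in the others, and the tile next to it met the rule as well.

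The range among the leukemic libraries had a median of 17.8 points in the chosen tiles, against 12.3 points in the tiles that could meet the rule. The 3 libraries lay within 10 points of each other in 110 tiles and over 30 points apart in 85. The lowest was replicate 1 in 95 tiles, replicate 2 in 198 and replicate 3 in 135. The highest was replicate 1 in 201 tiles, replicate 2 in 85 and replicate 3 in 142. Replicate 1, the deepest library, was thus most often the least lowered, and whether depth had a part in this was not tested; thinning all libraries to equal reads left 371 tiles that met the rule.

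**Figure D2:**
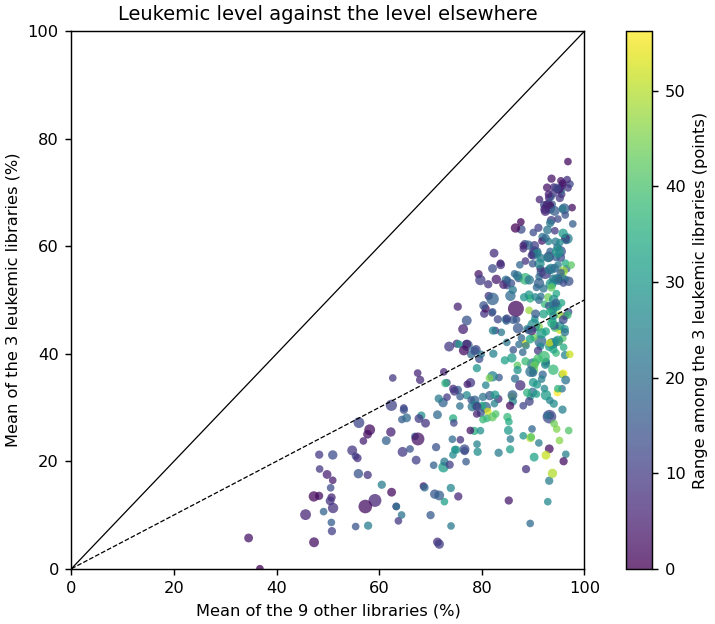
Mean level of the 3 leukemic libraries (%, y axis) against the mean of the 9 others (%, x axis) for the 428 tiles. Point size grows with the number of tested CpGs, colour is the range among the leukemic libraries, the solid line marks equal levels and the dashed line 50% of the other level; 241 tiles lie on or under the dashed line.

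The chosen tiles were mostly well methylated elsewhere, but less so than the tiles that could meet the rule. The mean of the 9 others had a median of 88.7% in the chosen tiles, against 94.1%. All 9 others were at 80% or more in 215 tiles and at 90% or more in 55. Tiles with a mean of 50 to 80% elsewhere met the rule most often, 115 tiles or 1.75% of those that could. Those at 80 to 90% followed with 110 tiles (1.52%) and those at 90 to 95% with 137 (0.899%). Of the tiles at 95% or more, 56 met it (0.249%), and of those at 15 to 50%, 10 did (0.377%). The threshold is in points, so a tile with little methylation elsewhere has less room to meet it.

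In the chosen tiles the difference in points changed little across the classes from 50% upward, while the level reached did. The median difference was -42.8 points at 50 to 80% and -41.2 points at 95% or more, and the median leukemic level was 25.4% and 54.7% in the same classes. The least methylated class, at 15 to 50%, had a median leukemic level of 12.04% and a median difference of -34.3 points. Every chosen tile had to pass the same 15-point gap, which bounds the difference in each class. Over the tiles that could meet the rule, the median difference was -6.92 points at 50 to 80% and -3.69 points at 95% or more.

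Most single CpGs in the chosen tiles went the way of their tile. The tile level is the sum of their reads, so the rule fixes much of this and the counts are a description. Of the 1961 tested CpGs, 1930 (98.4%) had a lower leukemic mean, and 1195 (60.9%) had all 3 leukemic libraries below all 9 others. In 401 tiles every CpG had a lower leukemic mean. Without its most lowered CpG, 227 tiles (53.0%) still met the rule, and in 386 the leukemic libraries still lay below all others. In 82 tiles no CpG had a gap of 15 points by itself.

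Both strands were covered at 200 of these CpGs, and the leukemic mean was lower on both at 195. The median difference was -43.0 points on the forward and -45.2 points on the reverse strand. These CpGs are among those that chose the tiles, so this too is a description.

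The chosen tiles had the low CpG density of methylated DNA in this assay. They held a median of 4 tested CpGs, against 4 in the tiles that could meet the rule and 5 in all tiles. Tiles with 3 CpGs, the fewest allowed, made up 39.7% of them, against 38.2% and 28.2%. Tiles with at least 10 CpGs numbered 15 (3.5%), against 5.53% and 24.9%. With few CpGs a tile level has more counting error, and a rule of at least 5 CpGs left 146 tiles.

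The densest was a tile of 23 CpGs at chr10:80069000-80069999, in Scamp4 and Adat3, which encode a secretory carrier membrane protein and a subunit of a tRNA deaminase. The leukemic libraries were at 49.2%, 47.8% and 48.1%, the nonleukemic double mutants at 90.6%, 93.9% and 90.4%, the Tet2-/- libraries at 90.7%, 91.1% and 94.8%, and the Nras G12D libraries at 69.2%, 80.6% and 78.5%. The leukemic libraries differed by no more than 1.40 points, and Nras G12D lay below both other groups without overlap. This held for the sum over the tile. Of its 23 CpGs, 5 had every leukemic library below every other library and 2 of these by 15 points or more, and at position 80069384 the leukemic libraries ran from 0% to 100%. A tile of 16 CpGs at chr19:5757000-5757999, 30.7 kb upstream of Ehbp1l1, was at 10.3%, 12.7% and 11.8% in the leukemic libraries and at 48.7% to 66.2% in the others.

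Around the chosen tiles the genome was somewhat richer in CpGs and in unmethylated islands than around the tiles that could meet the rule. An island-like tile, with at least 10 tested CpGs and under 10% in the 9 others, lay at a median of 29.0 kb, against 44.0 kb, and within 2 kb of 27 tiles (6.31%, against 4.27%). It lay within 100 kb of 82.9% of them, against 70.7%. The median number of tested CpGs per Mb around a tile was 636, against 554. Islands themselves could not meet the rule.

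Most chosen tiles stood alone. Another such tile lay within 1 kb of 10 of them (2.34%), within 10 kb of 18 (4.21%), within 100 kb of 64 (14.95%) and within 1000 kb of 237 (55.4%). The tiles that could meet the rule had such a tile, other than themselves, within these distances in 0.140%, 1.09%, 7.97% and 43.1% of cases. With steps of at most 10 kb there were 8 runs, which held 18 tiles, and 410 tiles lay outside them. The longest runs held 3 tiles.

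**Figure D3:**
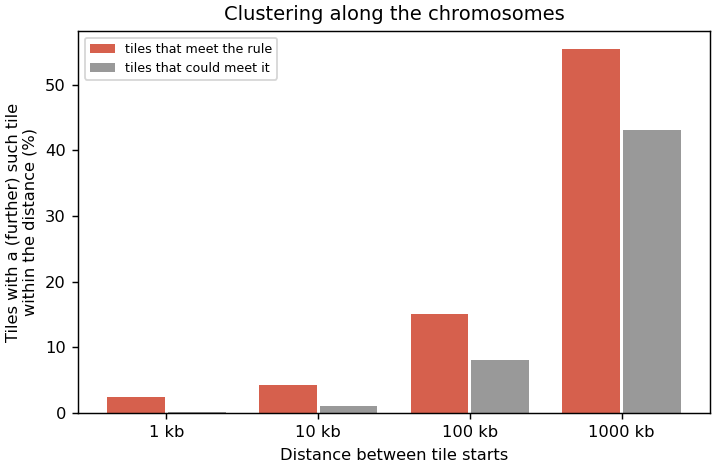
Share of tiles (%, y axis) with a further tile that meets the rule within 1, 10, 100 or 1000 kb (x axis), for the 428 tiles and for the 54211 that could meet the rule. Within 10 kb the shares are 4.21% and 1.09%.

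Of 76 tiles that lay 1 kb from a chosen tile and could meet the rule, 10 met it (13.2%), against 0.790% of all that could. In the 66 that did not, the leukemic minus other difference had a median of -6.59 points, and the leukemic libraries lay below all 9 others in 14 of them (21.2%). Over all 53783 tiles that could meet the rule and did not, these values were -4.62 points and 11.4%. Neighbours are few in this assay, since tested tiles are spaced apart.

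Every autosome held chosen tiles. Chromosome 11 held the most, 42. As a share of the tiles that could meet the rule, chromosome 19 had the highest value at 1.24% (20 tiles), and chromosomes 12 and 14 the lowest at 0.312% (7 and 6 tiles). Chromosome 3, where Nras lies, held 18 tiles, 0.790% of those that could.

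A run of 3 tiles lay upstream of Gata2, which encodes a transcription factor that blood stem cells need. Other placed starts were nearer. That of Rpn1 lay 31.5 and 32.5 kb from the first and second tiles, and that of Gm38856 lay 31.4 kb from the third. In mice a distal enhancer of Gata2 is known far upstream of the gene; its position was not compared with these tiles. The first tile, chr6:88066000-88066999 with 6 CpGs, ended 76.9 kb before the first of 2 placed starts. Its leukemic libraries were at 18.1%, 4.12% and 19.4%, the nonleukemic double mutants at 68.1%, 69.8% and 65.6%, the Tet2-/- libraries at 74.7%, 84.0% and 68.9%, and the Nras G12D libraries at 68.2%, 62.0% and 76.2%. The tile after it, chr6:88067000-88067999 with 7 CpGs, had leukemic levels of 16.2%, 3.90% and 20.8%. There the nonleukemic double mutants were at 76.8%, 74.1% and 66.2%, the Tet2-/- libraries at 81.5%, 94.2% and 85.4%, and the Nras G12D libraries at 55.4%, 62.2% and 49.5%. All CpGs of both tiles had every leukemic library below every other library.

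The third tile of the run, chr6:88070000-88070999 with 5 CpGs, was at 38.5%, 27.1% and 27.8% in the leukemic libraries. The nonleukemic double mutants were at 91.7%, 90.7% and 84.6%, the Tet2-/- libraries at 96.7%, 96.5% and 97.0%, and the Nras G12D libraries at 78.7%, 80.1% and 87.4%. A further tile lay 29.3 kb downstream of the nearer placed start, at chr6:88178000-88178999 with 3 CpGs. Its leukemic libraries were at 61.6%, 45.8% and 32.0%, against 83.2% to 98.1% in the nonleukemic double mutants, 89.9% to 100% in Tet2-/- and 81.6% to 91.7% in Nras G12D. Of 33 tested tiles around the gene these 4 met the rule. At the placed starts of Gata2 the tiles were under 2% in every group.

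**Figure D4:**
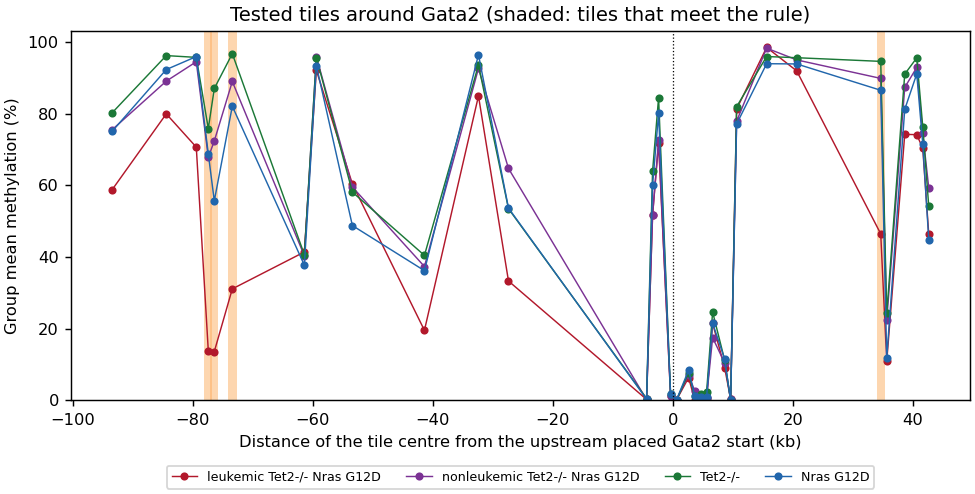
Group mean methylation (%, y axis) of the tested tiles around Gata2 against the distance of the tile centre from the upstream placed start (kb, x axis); points are tiles, lines join them in order and shaded bands are the 4 tiles that meet the rule. The leukemic line is the lowest in all 4 bands, and the tile that holds the start is under 2% in every group.

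The other run of 3 tiles was on chromosome 4, from 130459000 to 130465999, downstream of Sdc3, a syndecan proteoglycan of the cell surface, by 110.5 to 116.5 kb. Its leukemic levels were 68.7%, 46.3% and 58.3% in the first tile, 64.0%, 50.6% and 60.5% in the second and 37.1%, 16.5% and 43.3% in the third. The 9 others were at 88.5% to 94.7%, 80.8% to 97.3% and 66.9% to 87.8% in the same tiles. Replicate 2 was the lowest leukemic library in all 3.

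Gene starts could be placed for 8937 autosomal genes, and chromosome 18 with its 13 chosen tiles had none, so 415 tiles were set against genes. The nearest placed start lay at a median of 51.8 kb, against 63.5 kb for the tiles that could meet the rule. It lay within 1 kb of 11 tiles (2.65%, against 1.81%), within 5 kb of 43 (10.4%, against 7.22%) and within 10 kb of 77 (18.6%, against 13.5%). Inside the span of a gene with a placed start lay 143 tiles (34.5%, against 30.4%). Genes without a placed start are missing from these counts.

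The tiles within 1 kb of a start, other than the 2 printed above, lay at genes of varied roles. The widest gap, 42.9 points, was at chr19:9002000-9002999, 0.847 kb downstream of the start of Rom1, a membrane protein of photoreceptors, where the leukemic libraries were at 41.6%, 16.4% and 36.0%, against 84.5% to 100% in the others. Near Tsr1, a factor of ribosome assembly, at chr11:74712000-74712999, the leukemic libraries were at 15.5%, 36.4% and 41.5%, against 77.5% to 98.3% in the others. Near Ccdc116 a tile of 14 CpGs, chr16:17148000-17148999, was at 10.04%, 12.2% and 15.9% in the leukemic libraries and at 48.9% to 72.9% in the others. Mfsd2b exports sphingosine-1-phosphate from red cells and platelets, and its tile, chr12:4880000-4880999, 0.166 kb past the start, was at 31.7%, 17.6% and 18.6% in the leukemic libraries and at 61.1% to 82.5% in the others.

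At the starts of Nudt22, Myo1c and Rps15 the other libraries were only partly methylated. Near Nudt22, of the Nudix hydrolase family, at chr19:7069000-7069999, the leukemic libraries were at 25.8%, 27.0% and 24.8%, against 52.2% to 65.4% in the others. Near Myo1c, an unconventional myosin, at chr11:75466000-75466999, they were at 21.5%, 14.4% and 27.6% and the others at 47.4% to 56.8%. Near Rps15, a protein of the small ribosomal subunit, at chr10:79756000-79756999, they were at 23.6%, 25.8% and 16.7% and the others at 42.6% to 64.7%. Near Zfp341, a zinc finger factor, the tile chr2:154440000-154440999 had 3 CpGs and as few as 42 reads, with 61.4%, 40.5% and 50.2% in the leukemic libraries and 79.8% to 100% in the others.

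Of 79 genes in 7 lists for blood cells, Ras signalling, growth and methylation, 46 had a placed start. A chosen tile lay within 50 kb of 3 of them (6.52%), against 351 of all 8937 placed genes (3.93%). They were Gata2 among 7 placed stem cell factors, Kit among 5 placed receptors and Mycn among 6 placed growth genes. For Gata2 this was the tile of 3 CpGs at chr6:88178000-88178999, as the upstream run lay farther than 50 kb from its starts. No chosen tile lay within 50 kb of the 6 placed myeloid genes, the 7 lymphoid factors, the 7 MAPK feedback genes or the 8 methylation enzymes. The 33 listed genes without a placed start were not set against tiles.

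Kit encodes the receptor for stem cell factor, whose protein is also a marker of the sort. Its tile, chr5:76004000-76004999 with 8 CpGs, lay within the gene, 33.0 kb after the start. The leukemic libraries were at 31.7%, 20.8% and 58.6%, the nonleukemic double mutants at 94.4%, 96.5% and 93.8%, the Tet2-/- libraries at 97.5%, 93.5% and 96.8%, and the Nras G12D libraries at 93.3%, 83.0% and 96.6%. The tile before it averaged 93.9% in the leukemic libraries, 92.5% in the nonleukemic double mutants, 97.2% in Tet2-/- and 94.1% in Nras G12D. The tile of Mycn, a growth-promoting transcription factor, lay 20.6 kb downstream at chr12:12927000-12927999 with 3 CpGs, at 63.0%, 51.4% and 46.5% in the leukemic libraries and at 80.9% to 94.1% in the others.

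The order of the 3 other groups was not used by the rule beyond the lowest single library. In the chosen tiles Tet2-/- was most often the highest of the 3 and Nras G12D most often the lowest. The mean over the tiles was 83.8% in the nonleukemic double mutant, 86.9% in Tet2-/- and 81.3% in Nras G12D. Tet2-/- had the highest group mean in 305 tiles (71.3%), against 48.8% of the tiles that could meet the rule. Nras G12D had the lowest in 269 (62.9%, against 45.8%), the nonleukemic double mutant in 124 (29.0%, against 30.7%) and Tet2-/- in 35 (8.18%, against 23.5%). The full order with Tet2-/- highest, the nonleukemic double mutant next and Nras G12D lowest held in 213 tiles (49.8%). The order with Tet2-/- highest and the nonleukemic double mutant lowest held in 92 (21.5%). Full orders were counted in the chosen tiles only. How common they are in the tiles that could meet the rule is not known, so they are no trait of the chosen tiles. Without the 3 libraries with chromosome Y positions, Nras G12D was lowest in 53.7%. The share over the tiles that could meet the rule was not computed in that setting, so no excess can be read from this value.

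The median difference over the chosen tiles was 4.57 points for Tet2-/- minus Nras G12D, against 1.26 points in the tiles that could meet the rule. It was -2.49 points for the nonleukemic double mutant minus Tet2-/- (against -0.74 points) and 1.86 points for the nonleukemic double mutant minus Nras G12D (against 0.559 points). These comparisons share libraries, so their signs are tied to each other.

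**Figure D5:**
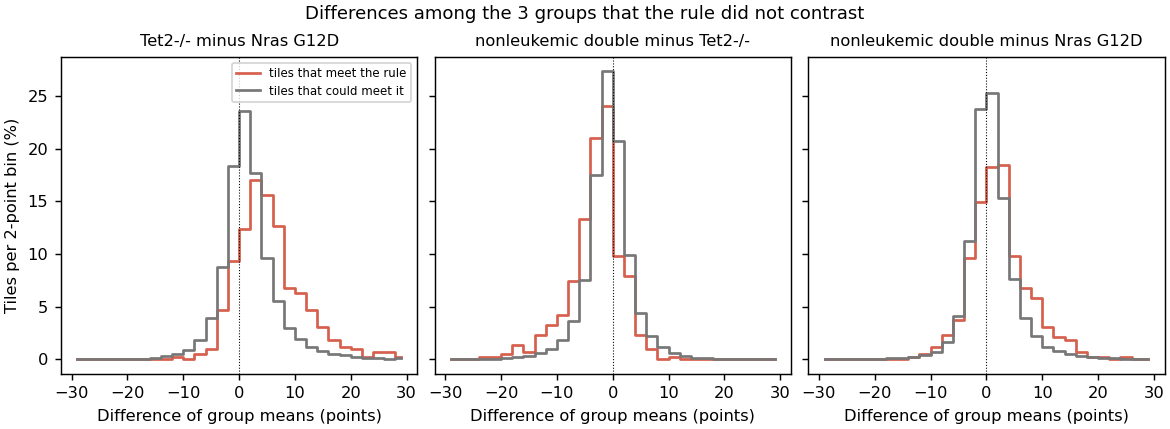
Share of tiles (%, y axis) by difference of group means (points, x axis, in bins of 2 points) for Tet2-/- minus Nras G12D, nonleukemic double mutant minus Tet2-/- and nonleukemic double mutant minus Nras G12D. Lines are the 428 tiles and the 54211 that could meet the rule; the medians of the 428 are 4.57, -2.49 and 1.86 points.

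The 3 groups were tested in pairs over all 81162 tiles on the 9 libraries without leukemia, with a quasi-binomial model, moderated dispersion and Benjamini-Hochberg adjustment. No tile (0.0%) was called in any pair at an adjusted p under 0.05 with at least 10 points between group means, by this test or by limma on log ratios. At an unadjusted p under 0.05, Tet2-/- was higher than Nras G12D in 108 chosen tiles (25.2%), against 8.51% of all tiles, and lower in 0, against 1.83%. The nonleukemic double mutant was lower than Tet2-/- in 49 (11.4%, against 4.44% of all tiles) and higher in 2 (0.467%, against 2.04%). It was higher than Nras G12D in 43 (10%, against 4.04% of all tiles) and lower in 1 (0.234%, against 1.46%). Over the tiles that could meet the rule, these shares were 9.47% and 1.49%, 4.98% and 1.49%, and 3.94% and 1.58%, in the same order. The lower level of the chosen tiles in the 9 others was not taken into account. In limma, Tet2-/- was higher than Nras G12D in 82 chosen tiles (19.2%, against 6.52% of all tiles) and lower in 1 (0.234%, against 1.69%). The nonleukemic double mutant was lower than Tet2-/- in 27 (6.31%, against 3.82%) and higher in 1 (0.234%, against 1.74%), and it was higher than Nras G12D in 17 (3.97%, against 2.62%) and lower in 3 (0.701%, against 1.4%).

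The quasi-binomial counts changed when single libraries were left out, and the shares of all tiles changed too. Without nonleukemic replicate 1, 2 or 3, the nonleukemic double mutant was lower than Tet2-/- in 35, 32 or 36 chosen tiles. These were 8.18%, 7.48% and 8.41%, against 3.29%, 2.91% and 3.21% of all tiles. Without Tet2-/- replicate 1, 2 or 3, the nonleukemic double mutant was lower in 61, 30 or 53 chosen tiles. These were 14.3%, 7.01% and 12.4%, against 7.99%, 3.54% and 5.68% of all tiles. Without the 3 libraries with chromosome Y positions this count was 23 (5.37%, against 5.22%), so the share was that of all tiles. In that setting Tet2-/- was higher than Nras G12D in 67 chosen tiles (15.7%, against 7.86%). Tet2-/- then has 1 library, which is assumed to vary like the other groups.

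Counts without overlap between replicates ran the same way. All 3 Tet2-/- libraries lay above all 3 Nras G12D libraries in 107 chosen tiles (25%), against 8.94% of all tiles, and below them in 3 (0.701%, against 2.49%). All 3 nonleukemic double mutants lay below Tet2-/- in 70 (16.4%, against 7.07%) and above it in 5 (1.17%, against 4.15%). They lay above Nras G12D in 58 (13.6%, against 8.45%) and below it in 14 (3.27%, against 3.58%).

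The smallest adjusted p in a chosen tile was 0.0949, for Tet2-/- minus Nras G12D at chr10:5725000-5725999 (8 CpGs), whose values were 58.5%, 57.9% and 65.5% in Tet2-/- and 38.4%, 38.6% and 37.99% in Nras G12D. The leukemic levels there were 15.6%, 10.8% and 7.52%, and those of the nonleukemic double mutants 50.8%, 56.1% and 55.2%. A fit limited to the 54211 tiles that could meet the rule, chosen after the data had been seen, called Tet2-/- higher than Nras G12D in 47 tiles (0.0867%) and lower in 5 (0.00922%). Of the chosen tiles 4 were among the higher ones, which is 0.935% of them. They include the tile just given (difference 22.3 points, adjusted p = 0.00682). The others were the second Gata2 tile (31.3 points, adjusted p = 0.0119), the tile in Scamp4 and Adat3 (16.1 points, adjusted p = 0.0116) and chr9:108353000-108353999, 0.834 kb upstream of Ccdc71 (12.6 points, adjusted p = 0.0220). That last tile, with 13 CpGs, was at 85.0%, 88.1% and 87.0% in Tet2-/- and at 72.4%, 75.9% and 74.1% in Nras G12D. Between the nonleukemic double mutant and Nras G12D that fit called 6 tiles higher (0.0111%) and 4 lower (0.00738%), and the only chosen tile among them was that in Scamp4 and Adat3, which was higher (15.5 points, adjusted p = 0.0327).

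Tiles just inside and just outside the threshold differed little in their gap. Just inside it, with gaps of 15.01 and 15.03 points, chr4:33668000-33668999 was at 67.5%, 67.4% and 54.5% in the leukemic libraries and at 82.5% to 96.9% in the others, and chr11:77598000-77598999 was at 31.3%, 19.3% and 30.9% and at 46.4% to 61.3%. Just outside, chr9:107209000-107209999 and chr15:80857000-80857999 had gaps of 14.9 points, with highest leukemic levels of 11.2% and 65.1% and lowest other levels of 26.1% and 80%. There were 499 tiles with a gap of 10 to 15 points.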

How the data were processed

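Libraries were made from MspI fragments sized 150 to 400 bp, bisulfite treated, with single reads of 50 bp, per the labels' protocols. The submitters' processing notes name Bismark (no version) and mm9. The authors' deposited tables list cytosines with coverage (a read count, never under 10) and 2 columns of percent, for reads showing C and reads showing T. Methylated and unmethylated counts were recovered from these, rounded to whole reads and summed over strands. No molecular identifiers are named, so PCR copies count as reads.

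Tiles of 1000 bp were scored as described. A quasi-binomial model per tile compared the 9 libraries without leukemia (6 residual degrees of freedom). Its dispersion was moderated across tiles as in limma's squeezeVar, with a floor of 1, and p-values were adjusted over all 81162 tiles. The test was tested on simulated data with known changes. Alternatives covered coverage, tile size, gap, CpG minimum, strands, thinning, limma, a replicate block and each library left out.

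No genome of the files' build was at hand. RefSeq promoters (250 bases before to 50 after a start, GRCm38.p6) were placed on the files' positions where at least 5 covered CpGs matched their spacing, at least 3 more than at the next best place. Of 32619 sequences, 20328 had enough CpGs and 10356 were placed uniquely, 99.8% of them in the table's gene order; a gene's span is its RefSeq length from there.

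Tiles named are the 10 with the widest gap (at least 5 CpGs), both longest runs, the 3 with the most CpGs, those nearest the threshold, up to 10 within 1 kb of a start, and the 3 with the widest leukemic range; those at listed genes or called in the added fit were named after their values were seen. Tiles and lists were chosen with earlier results of these data known. Software was R 4.3.3 with limma 3.58.1, and Python 3.11.15 with pandas 2.3.3, SciPy 1.17.1, matplotlib 3.10.9, NumPy 2.4.6 and numba 0.67.0.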

Additional observations from a re-analysis of the deposited data

Results flagged for a closer look

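The X chromosome was outside the rule, which used autosomes. Of 1727 X tiles tested, 3 had all 3 leukemic libraries at least 15 points below the 9 others, and 0 had them above; for the other groups the same count was 0 in both directions. The tile at chrX:7346000-7346999 was at 68.1%, 43.6% and 57.0% in the leukemic libraries and at 83.7% to 100% in the others. At chrX:12070000-12070999 they were at 38.8%, 46.3% and 57.1%, against 74.2% to 98.1%, and at chrX:137053000-137053999 at 51.5%, 64.3% and 55.7%, against 81.9% to 100%. The labels do not give the animals' sex.

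CpGs in the chosen tiles that did not have 10 reads in every library were not used by the rule. There were 305 with values in both sets of libraries, and their leukemic mean minus the mean of the others had a median of -26.3 points, with 255 (83.6%) lower. Over 201175 such CpGs elsewhere with a mean of 15% or more in the others, the median was -1.31 points and 53.4% were lower. No such minimum was set for the 305 in the chosen tiles. They share fragments and libraries with the CpGs that chose the tiles, so this is no independent support.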

How the results depend on the processing

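The number of tiles that met the rule, 428, became 927 with a gap of 10 points, 160 with 25 points, 146 with at least 5 CpGs per tile and 227 without each tile's most lowered CpG. It ran from 432 to 1110 when each library was left out in turn, with 1110, 754 and 829 without leukemic replicate 1, 2 or 3. Under this rule, leaving a library out can only keep or add tiles. The other settings gave 332 (at least 20 reads) to 483 tiles. A similar count need not mean the same tiles. With the unweighted mean of CpG levels the rule gave 404 tiles, of which 317 were among the 428. The share with another tile within 100 kb fell to 8.13% with a gap of 25 points. The shares of left-out leukemic libraries were 67.6%, 84.3% and 72.8% with a gap of 10 points and 86.1%, 94.2% and 89.1% with 25 points. Nras G12D was lowest in 56.5% to 69.2% of tiles with each library left out, and in 53.7% without the 3 libraries with Y positions. For these settings the share over the tiles that could meet the rule was not computed.

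For Tet2-/- minus Nras G12D, tiles called numbered 1 with at least 20 reads, 0 to 2 with each library left out, 52 in tiles that could meet the rule and 15 in tiles with replicate spread above 0. For the nonleukemic double mutant minus Nras G12D they numbered 2 with 12 libraries, 1 with 6 libraries, 0 to 3 with each library left out, and 10 and 8 in the same subsets. For the nonleukemic double mutant minus Tet2-/- they were 0 throughout. The quasi-binomial fit on all 12 libraries was also read at an unadjusted p under 0.05. In it, Tet2-/- was higher than Nras G12D in 64 chosen tiles (15%, against 5.03% of all tiles). The nonleukemic double mutant was lower than Tet2-/- in 28 (6.54%, against 2.38% of all tiles). The shares of all tiles fell as well, from 8.51% and 4.44% in the fit on 9 libraries. The fits on tiles that could meet the rule and on tiles with replicate spread above 0 were chosen after seeing the data. They tested 54211 and 80971 of the 81162 tiles, and the cause of the added calls was not tested. Among the 9 libraries without leukemia, correlations of deviations ran from -0.00946 to 0.0231 between libraries with the same replicate number. Between different numbers they ran from -0.0465 to 0.0372. These values cannot show whether libraries with equal numbers share a batch, and the leukemic libraries were not included. With the replicate number as a block 0 tiles were called in each comparison.

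Thin tiles limit the single values: a tile of 3 CpGs can rest on 33 reads in a library.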

Other observations

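Of the 143 chosen tiles within genes, 6 are given here for genes outside the lists. They were picked by hand after their values were seen, so they are examples and no sign that such genes hold chosen tiles more often than others. Within Stat5a, a transcription factor of cytokine signalling, the tile chr11:100741000-100741999 (6 CpGs) averaged 44.3% in the leukemic libraries and 89.7% in the 9 others. Within Zfpm1, a cofactor of GATA factors, chr8:124830000-124830999 (9 CpGs) averaged 41.9% in the leukemic libraries and 93.7% in the others. Msi2, an RNA-binding protein of blood stem cells, held 2 tiles. At chr11:88269000-88269999 (3 CpGs) the averages were 7.96% in the leukemic libraries and 74.0% in the others, and at chr11:88281000-88281999 (8 CpGs) they were 35.8% and 82.1%.

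Within Pik3r1, a regulatory subunit of PI3 kinase, chr13:102528000-102528999 (3 CpGs) averaged 10% in the leukemic libraries and 64.4% in the others. Within Idh2, an enzyme of the citrate cycle that is itself mutated in human myeloid leukemia, chr7:87254000-87254999 (3 CpGs) averaged 50.6% in the leukemic libraries and 90.4% in the others. No expression was measured, so nothing here says whether these genes changed.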
